A study of Homo sapiens with 9 samples.

Results

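Iron and heme handling was examined in HepG2 cells through 10 genes chosen by name: the ferritin subunits FTH1 and FTL, the ferritin cargo receptor NCOA4, the transferrin receptor TFRC, the heme oxygenases HMOX1 and HMOX2, the biliverdin reductases BLVRA and BLVRB, ferrochelatase (FECH) and the transporter ABCB6. Of these 10, 8 had a row among the 11746 features with a gene number in the deposited counts and all 8 passed the filter on low counts. HMOX2 and ABCB6 were not analysed here. The 10 genes were chosen with earlier results of these data known.

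HepG2 is an established human liver cancer cell line. The cells had been transduced with the lentiCRISPRv2 vector, which carries Cas9 together with a guide RNA, and RNA was taken 48 h after seeding. The 3 groups of 3 libraries each were sgCtrl (a guide against the AAVS1 locus, labelled sgAAVS168), sgKeap1-1 and sgKeap1-2 (2 different guides against KEAP1), so vector, Cas9 and DNA cutting were shared by all 9 libraries and no untransduced cells were among them. The transduced cells had been selected with puromycin, and no single-cell cloning step is given in the sources used here. A group may therefore hold a mixture of edited and unedited cells, and lower RNA in every cell cannot be told apart from a lower share of cells expressing a gene. Both KEAP1 guides were compared with the same 3 sgCtrl libraries, so the 2 comparisons are not independent.

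KEAP1 is the adaptor through which the transcription factor NRF2 is marked for degradation. NRF2 acts through DNA sequences called antioxidant response elements, and ferritin, heme oxygenase and biliverdin reductase genes are well known among its targets. BACH1, a repressor that binds related elements, is released from DNA by heme. Ferritin and the transferrin receptor are in addition controlled after transcription: iron regulatory proteins bind iron responsive elements, short RNA stem-loops, and thereby block translation of ferritin mRNA and stabilise TFRC mRNA when iron is scarce. The counts here are of mRNA 3′ ends and hold no measure of translation or protein.

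Matches to the iron responsive element are shown for the genes described below because they set the ferritin subunits and the transferrin receptor apart from the other genes of the list. The search pattern was an unpaired C, 5 bases of stem, the 6-base loop CAGTG followed by A, C or T, and 5 bases that pair with the stem, G with T allowed. Matches are printed 5′ to 3′ with the loop in capitals, in DNA letters as the transcript sequences give them:
FTH1: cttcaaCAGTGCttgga
FTL: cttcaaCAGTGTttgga
SLC40A1: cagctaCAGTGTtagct
TFRC site 1: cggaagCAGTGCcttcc
TFRC site 2: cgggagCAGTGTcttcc
TFRC site 3: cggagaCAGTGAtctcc
TFRC site 4: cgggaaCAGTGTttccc
TF: cattttCAGTGAaagat

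These matches came from GENCODE transcripts on GRCh37. Only the Ensembl canonical transcript of each coding gene was searched, so elements in other isoforms would be missed. The FTH1 element lies on the minus strand at chr11:61735052-61735068, in the 5′ UTR (exon 1 of 4). The FTL element lies on the plus strand at chr19:49468598-49468614, also in the 5′ UTR (exon 1 of 4). The element of SLC40A1, the iron exporter ferroportin, lies on the minus strand at chr2:190445393-190445409 in the 5′ UTR (exon 1 of 8). The 4 TFRC matches lie on the minus strand in the 3′ UTR (exon 19 of 19), at chr3:195777856-195777872, chr3:195777452-195777468, chr3:195777387-195777403 and chr3:195777340-195777356. The match in TF, transferrin, lies on the plus strand at chr3:133511523-133511539 in the 3′ UTR (exon 17 of 17). It starts at position 16204 of the annotated transcript, while the FTH1, FTL, SLC40A1 and TFRC matches start between positions 33 and 3811. Shorter TF transcripts were not searched. Of the 8 measured genes, 3 held such a match, against 187 of 19869 coding genes searched (0.941%). A match is a description of the letters and no test of binding.

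Promoter windows, the 250 bases before the transcription start, were read from RefSeq on GRCh38.p14 for 6 of the 8 genes. FTH1 and HMOX1 had no entry. The windows of FTL, BLVRB and FECH are printed because these genes rose with a KEAP1 guide, as described below. They were searched on both strands for the core of the antioxidant response element, TGACNNNGC, where N is any base, and for the Maf recognition element; capitals mark a match to the core:
FTL: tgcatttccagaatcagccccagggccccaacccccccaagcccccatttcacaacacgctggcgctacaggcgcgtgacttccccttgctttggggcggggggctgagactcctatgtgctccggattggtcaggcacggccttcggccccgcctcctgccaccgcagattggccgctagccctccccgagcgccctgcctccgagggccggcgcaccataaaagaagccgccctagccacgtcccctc
BLVRB: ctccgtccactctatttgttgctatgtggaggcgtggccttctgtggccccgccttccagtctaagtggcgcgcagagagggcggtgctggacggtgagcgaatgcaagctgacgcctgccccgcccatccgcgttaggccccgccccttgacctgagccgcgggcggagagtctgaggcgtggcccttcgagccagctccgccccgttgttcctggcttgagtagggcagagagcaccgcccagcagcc
FECH: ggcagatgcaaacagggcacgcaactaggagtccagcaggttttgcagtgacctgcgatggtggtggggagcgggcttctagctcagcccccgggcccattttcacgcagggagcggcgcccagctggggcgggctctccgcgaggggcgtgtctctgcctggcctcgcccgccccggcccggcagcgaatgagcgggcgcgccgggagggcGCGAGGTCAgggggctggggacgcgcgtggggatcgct

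The FTL window spans chr19:48965059-48965308 on the plus strand, the BLVRB window chr19:40465746-40465995 on the minus strand and the FECH window chr18:57586703-57586952 on the minus strand. The core was found in the FECH window, on the reverse strand, between positions -38 and -30 from the start. It was found in no window of the other 5 genes, which says that these letters are not in those 250 bases. Sequence farther from the start was not searched. The core was present in 10.9% of 35116 promoter windows of the same length, and the Maf recognition element in 0.131% of them and in none of the members' windows.

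On GRCh37, as GENCODE annotates it, FTH1 (gene number 2495) lies at chr11:61727190-61735106 and FTL (2512) at chr19:49468566-49470136. NCOA4 (8031) lies at chr10:51565199-51590734, TFRC (7037) at chr3:195739382-195809024 and HMOX1 (3162) at chr22:35776354-35790207. BLVRA (644) lies at chr7:43798279-43846941, BLVRB (645) at chr19:40953672-40971671 and FECH (2235) at chr18:55211609-55253964. The deposited counts carry no coordinates, and these positions serve to identify the genes.

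The libraries held 3011644 to 4725840 counts in features with a gene number (median 3758185), and 11064 features were tested. All 8 hepatocyte markers examined were among the tested features. Of 9 markers of blood, endothelial, fibroblast and muscle cells, ACTA2 was the 1 marker that passed the filter on low counts (adjusted p = 0.996 with sgKeap1-1 and 0.697 with sgKeap1-2, edgeR). KEAP1 mRNA itself stood at 63.3, 89.2 and 85.3 CPM (a gene's share of the library's counts, scaled by TMM factors) in sgCtrl, at 64.1, 62.5 and 53.4 CPM with sgKeap1-1 and at 81.9, 85.6 and 73.9 CPM with sgKeap1-2, and it passed the test with neither guide (adjusted p = 0.211 and 0.952). A 3′ tag does not read the sequence at a cut site, so these counts do not check the editing. The NRF2 target NQO1, named here after its values were seen, rose with both guides, from a mean of 521 CPM to 1356 and 1738 CPM. In a principal component analysis of all tested features, replicate 3 of sgKeap1-2 stood farthest from the other libraries on the second component (score 38.9, the other libraries -28.3 to 10.8).

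The comparison of each KEAP1 guide with sgCtrl asked which genes changed when KEAP1 was targeted. FTL, the ferritin light chain, rose with both guides, FTH1, BLVRB and FECH rose with sgKeap1-2, and HMOX1 stayed within the spread of the libraries. With sgKeap1-2, 4 of the 8 genes passed the test at an adjusted p under 0.05 (edgeR quasi-likelihood test without the replicate number as a term, Benjamini-Hochberg over all features), and all 4 were higher: FTL, FTH1, BLVRB and FECH. In that comparison 10.8% of all tested features were called, 5.96% as higher and 4.85% as lower. With sgKeap1-1, 1 of the 8 was called, FTL, against 4.2% of all features (2.8% as higher, 1.4% as lower). With the replicate number as a block, FTH1, BLVRB and FECH were called higher with sgKeap1-1 as well, where 977 of 11064 features were called. The median log2 fold change of the 8 genes was 0.29 with sgKeap1-1 and 0.36 with sgKeap1-2, beside a median of about 0 over all features (-0.01 with sgKeap1-2). When both guides were taken as 1 group of 6 libraries, the same 4 genes were called, against 9.64% of all features (5.51% as higher, 4.13% as lower).

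**Figure D1:**
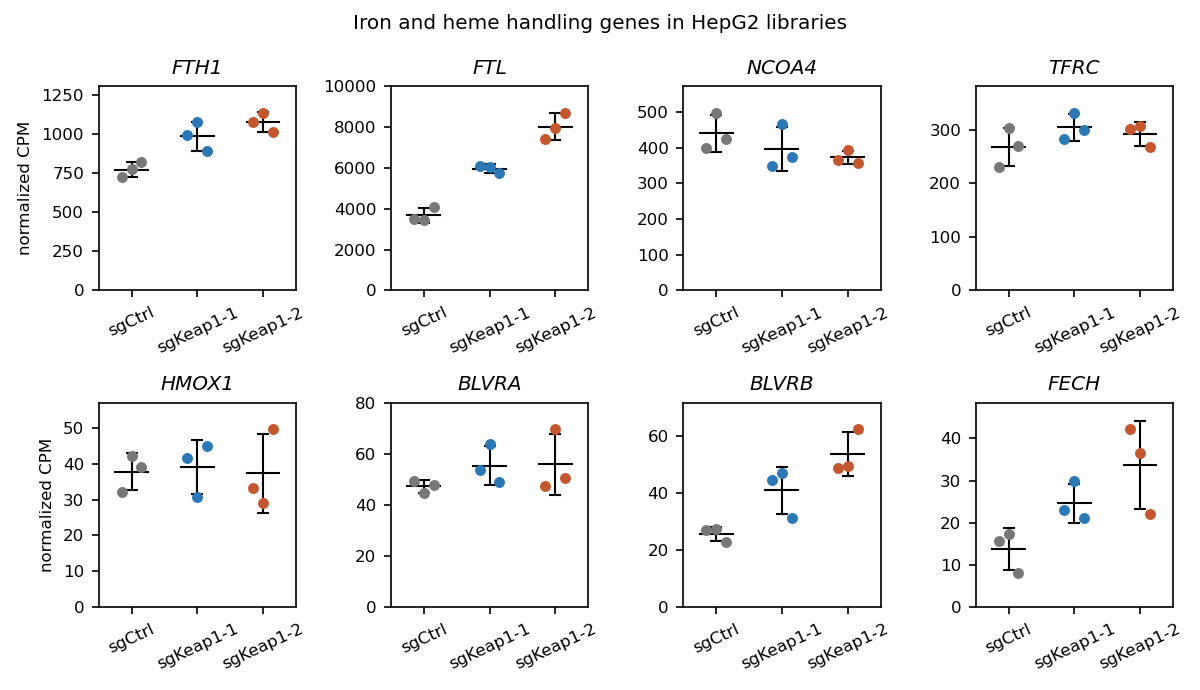
Normalized CPM (vertical axes, linear from 0) of the 8 measured genes in each library, by group (horizontal axes). Points are libraries, the wide line is the mean of 3 and the bars are 1 SD. FTL, FTH1, BLVRB and FECH have every KEAP1-guide library above every sgCtrl library, while the groups overlap for HMOX1, BLVRA and TFRC.

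Ferritin stores iron in a shell built of heavy and light chains. FTL, the light chain that promotes the mineral core, had 3494, 3440 and 4085 CPM in the sgCtrl libraries. It reached 6117, 6070 and 5732 CPM with sgKeap1-1 and 7407, 7977 and 8716 CPM with sgKeap1-2. The 3 groups did not overlap, in the order sgCtrl, sgKeap1-1, sgKeap1-2. FTL rose 1.63-fold with sgKeap1-1 (log2 fold change 0.70, SE 0.12, adjusted p = 0.00248) and 2.19-fold with sgKeap1-2 (1.13, SE 0.12, adjusted p = 2.48e-05), and both calls held in every alternative and with each library left out.

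The heavy chain FTH1, which carries the ferroxidase site that oxidises iron for storage, moved less. It stood at 722, 775 and 818 CPM in sgCtrl, 996, 1075 and 889 CPM with sgKeap1-1, and 1078, 1137 and 1011 CPM with sgKeap1-2. All 6 libraries of a KEAP1 guide lay above the highest sgCtrl library, while the libraries of the 2 guides overlapped. FTH1 rose 1.39-fold with sgKeap1-2 (log2 fold change 0.48, SE 0.12, adjusted p = 0.0153), and with sgKeap1-1 its log2 fold change was 0.36 (SE 0.12, adjusted p = 0.117, in the fit without the replicate number). The sgKeap1-1 comparison passed with the replicate number as a block (adjusted p = 0.0351). The call with sgKeap1-2 was lost without sgCtrl replicate 1 (adjusted p = 0.089) or sgKeap1-2 replicate 2 (0.0575). The call over both guides (adjusted p = 0.0168) was lost without sgCtrl replicate 1 (0.122) or sgCtrl replicate 2 (0.0556).

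FTH1 and FTL have many processed pseudogenes in the genome, of which GENCODE lists 25 and 16. None of these copies had a row among the 11746 features with a gene number. The 1052 features without a gene number were not searched for them. How reads that map to several places were treated is not given in the sources used here, so reads shared between these genes and their copies cannot be told apart. FTH1 also overlaps BEST1, which lies on the opposite strand and had no row among the features with a gene number.

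Because both ferritin chains were counted in the same library, their ratio does not depend on how libraries are scaled. The log2 ratio of FTL to FTH1 was 2.27, 2.15 and 2.32 in sgCtrl, 2.62, 2.5 and 2.69 with sgKeap1-1 and 2.78, 2.81 and 3.11 with sgKeap1-2. The ratio was thus higher in every KEAP1-guide library than in any sgCtrl library. Over both guides the log2 ratio was 0.50 higher (mean 2.75, SD 0.21, n = 6 against 2.25, SD 0.09, n = 3, two-sided exact permutation test p = 0.0119, the smallest this design allows, and 0.0952 after adjustment over 8 ratio comparisons). Each guide alone against sgCtrl, 3 libraries against 3, gave p = 0.1 in the exact permutation test, which is the smallest value possible. The ratio of light to heavy chain mRNA was thus shifted in all 6 libraries. Its p was already the smallest possible and did not pass the correction, so the adjusted p does not measure the size of the shift.

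**Figure D2:**
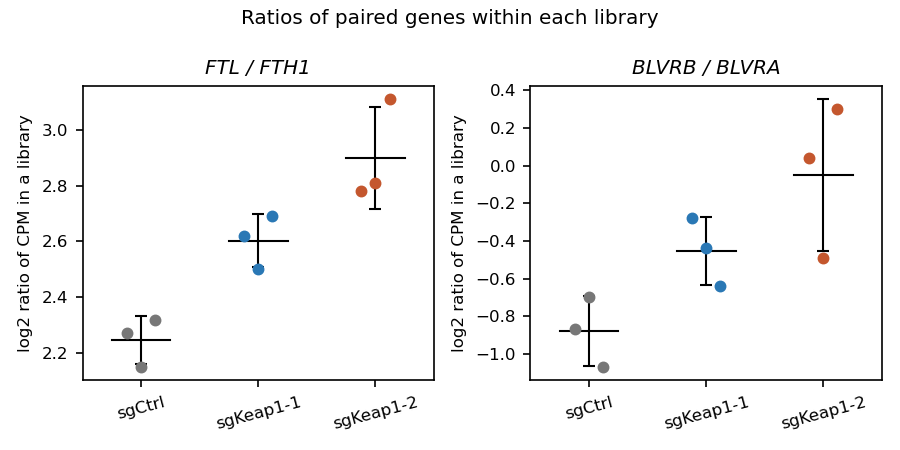
The log2 ratio of normalized CPM within a library (vertical axes) for FTL over FTH1 and BLVRB over BLVRA, by group. Points are libraries, the wide line is the mean of 3 and the bars are 1 SD. The FTL to FTH1 ratio runs from 2.15 to 2.32 in sgCtrl and from 2.5 to 3.11 with the KEAP1 guides.

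NCOA4 delivers ferritin to the lysosome, where its iron is released. It was at 398, 498 and 425 CPM in sgCtrl, 348, 465 and 373 CPM with sgKeap1-1, and 366, 394 and 358 CPM with sgKeap1-2. The sgKeap1-2 libraries lay below all sgCtrl libraries by a narrow margin and the sgKeap1-1 libraries overlapped with them. The log2 fold changes of -0.15 (95% interval -0.44 to 0.13, adjusted p = 0.694) and -0.24 (-0.53 to 0.05, adjusted p = 0.311) did not pass the test. NCOA4 was the gene of the list with the lowest log2 fold change in both comparisons.

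TFRC, the receptor that takes up transferrin-bound iron, had 231, 303 and 270 CPM in sgCtrl, 282, 332 and 300 CPM with sgKeap1-1, and 302, 307 and 267 CPM with sgKeap1-2. The 3 groups overlapped. Its log2 fold change was 0.18 with sgKeap1-1 (95% interval -0.09 to 0.46, adjusted p = 0.581) and 0.12 with sgKeap1-2 (-0.15 to 0.40, adjusted p = 0.632). The FTL intervals, 0.45 to 0.96 and 0.87 to 1.39, overlapped that of TFRC narrowly with sgKeap1-1 and lay above it with sgKeap1-2. The FTH1 log2 fold change lay inside the TFRC interval with sgKeap1-1 (0.36) and above it with sgKeap1-2 (0.48). The difference between TFRC and the ferritin genes was not tested. NCOA4 and TFRC were thus not called in any of the alternatives or with any library left out.

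HMOX1, the inducible heme oxygenase that opens the heme ring and frees its iron, is often used as a readout of NRF2 and BACH1. Its values were 32.1, 42.2 and 39.0 CPM in sgCtrl, 41.7, 30.7 and 45.0 CPM with sgKeap1-1 and 33.2, 29.0 and 49.7 CPM with sgKeap1-2. The groups overlapped, and each KEAP1 guide had libraries both below and above the lowest and highest sgCtrl library. The log2 fold change was 0.05 with sgKeap1-1 (95% interval -0.41 to 0.52, adjusted p = 0.957) and -0.01 with sgKeap1-2 (-0.48 to 0.46, adjusted p = 0.985). Each HMOX1 value rested on 108 to 205 counts, and its intervals leave room for changes between -0.48 and 0.52 on the log2 scale. In the same libraries NQO1 was 1.38 and 1.74 higher on the log2 scale (adjusted p = 8.25e-06 and 8.47e-07).

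BLVRA and BLVRB are the biliverdin reductases of the list, and BLVRB also acts as a flavin reductase. BLVRB stood at 26.8, 27.2 and 22.6 CPM in sgCtrl. It stood at 44.3, 46.8 and 31.3 CPM with sgKeap1-1 and at 48.6, 49.5 and 62.3 CPM with sgKeap1-2. As for FTL, the 3 groups followed one another without overlap. BLVRB rose 2.10-fold with sgKeap1-2 (log2 fold change 1.07, SE 0.19, adjusted p = 0.00177). With sgKeap1-1 the log2 fold change was 0.68 (SE 0.19) and the adjusted p of 0.06 missed the threshold. In fits without the replicate number it passed in a DESeq2 Wald test (adjusted p = 0.0397), without scaling factors (0.048) and without sgKeap1-1 replicate 3 (0.0229) or sgKeap1-2 replicate 3 (0.0311). It also passed with the replicate number as a block (0.0219).

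BLVRA, at 49.3, 44.6 and 48.0 CPM in sgCtrl, had 53.8, 63.8 and 48.9 CPM with sgKeap1-1 and 47.4, 69.8 and 50.6 CPM with sgKeap1-2. Its groups overlapped, and replicate 2 was the highest library of each KEAP1 guide. The log2 fold changes of 0.23 (95% interval -0.13 to 0.60) and 0.24 (-0.12 to 0.61) passed no test (adjusted p = 0.607 and 0.436). The log2 ratio of BLVRB to BLVRA was -0.87, -0.70 and -1.07 in sgCtrl, -0.28, -0.44 and -0.64 with sgKeap1-1 and 0.04, -0.49 and 0.30 with sgKeap1-2. Over both guides it was 0.63 higher (two-sided exact permutation test p = 0.0357, n = 6 against 3, adjusted 0.114 over 8 ratio comparisons).

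FECH inserts iron into protoporphyrin as the last step of heme synthesis. It was the least abundant gene of the list, with 59, 51 and 29 counts in sgCtrl, 94, 137 and 80 counts with sgKeap1-1 and 137, 150 and 91 counts with sgKeap1-2. As CPM these were 15.6, 17.4 and 8.09, then 22.9, 29.8 and 21, then 42.2, 36.6 and 22. All KEAP1-guide libraries lay above sgCtrl, while sgKeap1-2 replicate 3 fell within the range of sgKeap1-1. FECH rose 2.46-fold with sgKeap1-2 (log2 fold change 1.3, SE 0.30, adjusted p = 0.0114). With sgKeap1-1 the log2 fold change was 0.86 (SE 0.30, adjusted p = 0.151, in the fit without the replicate number). The sgKeap1-1 comparison passed with the replicate number as a block (adjusted p = 0.00977).

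The FECH call with sgKeap1-2 was lost without sgCtrl replicate 3, the lowest library (adjusted p = 0.0512), or without sgKeap1-2 replicate 1, the highest (0.0546). Over both guides FECH was called (log2 fold change 1.09, adjusted p = 0.0236) and the call was lost without sgCtrl replicate 1 (0.0676) or sgCtrl replicate 3 (0.127). Of the 13 genes of heme synthesis tested, which include the rate-limiting enzyme ALAS1, FECH was the 1 gene called with sgKeap1-2 (7.69% of the list against 10.8% of all features). ALAS1 had log2 fold changes of -0.16 and 0.06 (adjusted p = 0.871 and 0.926). No gene of heme synthesis was called with sgKeap1-1 by edgeR without the replicate number, limma-voom or DESeq2, and 1 had an unadjusted p under 0.05. The edgeR share of all features in that comparison was 4.2%.

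**Figure D3:**
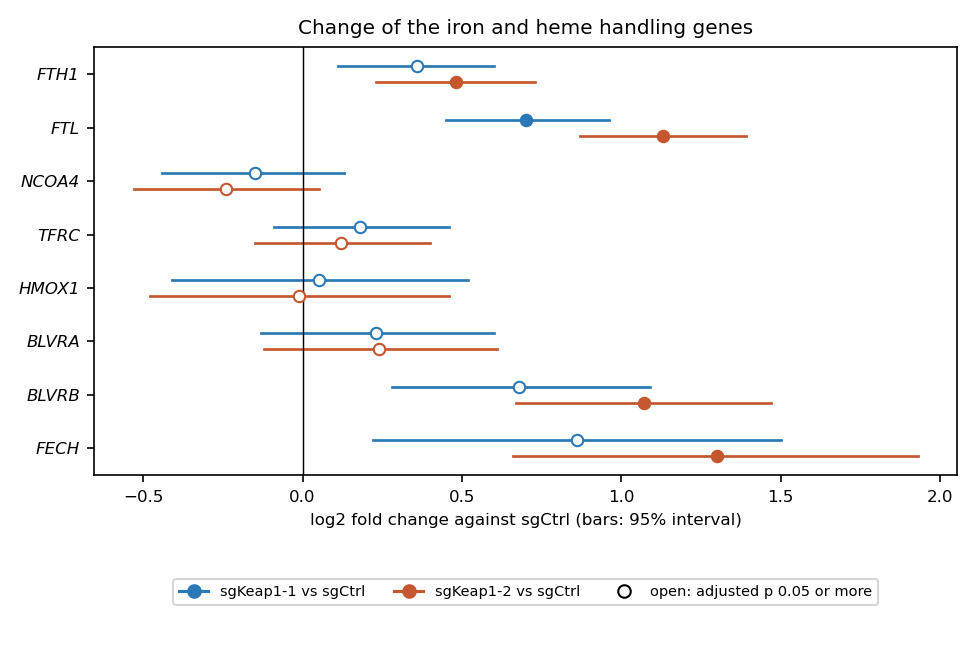
Log2 fold change against sgCtrl (horizontal axis) of each measured gene with sgKeap1-1 and sgKeap1-2. Bars give the 95% interval of the edgeR fit without the replicate number. Filled points passed an adjusted p of 0.05; FTL is filled for both guides, and FTH1, BLVRB and FECH for sgKeap1-2 alone.

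The guides were also set against each other. FTL was 0.43 higher on the log2 scale with sgKeap1-2 than with sgKeap1-1 (SE 0.12, unadjusted p = 0.00277, adjusted p = 0.704), BLVRB 0.39 higher (adjusted p = 0.968) and FECH 0.44 higher (adjusted p = 0.986). FTL and BLVRB were higher in all 3 sgKeap1-2 libraries than in any sgKeap1-1 library. None of the 8 genes was called between the guides by edgeR, limma-voom or DESeq2, and 2 had an unadjusted p under 0.05 (FTL and BLVRB). The background was small as well, at 0.0181% of all features. The calls of FTH1, BLVRB and FECH with sgKeap1-2 and not with sgKeap1-1 therefore come without a detected difference between the guides. With the replicate number as a block, these genes were called with sgKeap1-1 as well (adjusted p = 0.0351, 0.0219 and 0.00977).

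Other genes of iron and heme metabolism were taken from 8 lists by role, chosen with earlier results of these data known. The lists hold 80 genes besides the 10. Of these, 71 were tested. With sgKeap1-1, 2 were called higher and 3 lower (7.04% against 4.2% of all features), with sgKeap1-2 6 higher and 6 lower (16.9% against 10.8%), and over both guides 4 higher and 7 lower (15.5% against 9.64%). Their median log2 fold change was -0.02 and -0.07, and UGT1A1, described below, counted among those called higher each time.

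**Figure D4:**
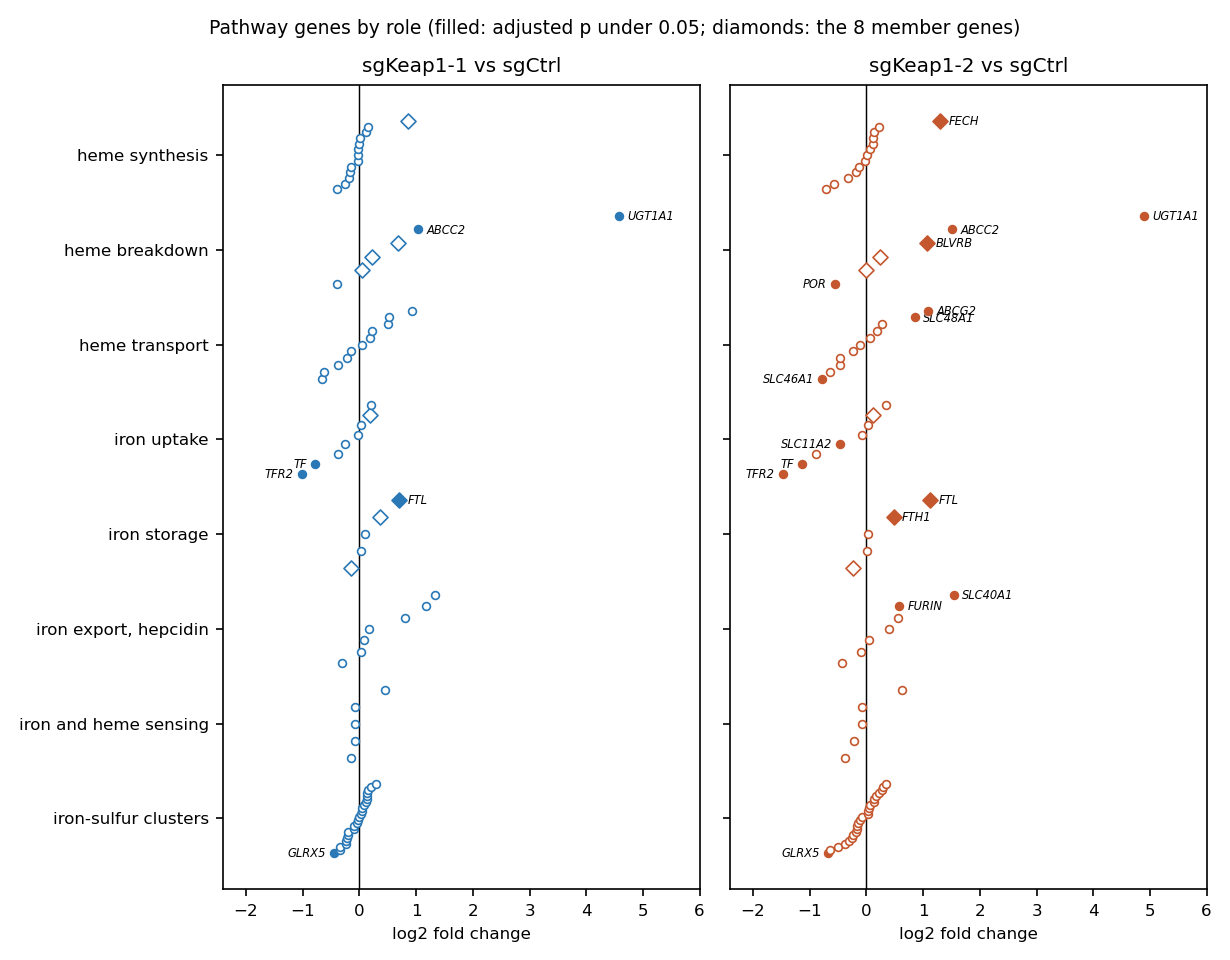
Log2 fold change against sgCtrl (horizontal axes) of the tested genes of 8 role lists (vertical axis), with sgKeap1-1 on the left and sgKeap1-2 on the right. Filled symbols passed an adjusted p of 0.05 and are named, and diamonds mark the 8 genes described above. FTL and FTH1 are on the higher side of iron storage, and TF and TFR2 on the lower side of iron uptake.

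Downstream of biliverdin reductase, bilirubin is conjugated by UGT1A1 and exported into bile by ABCC2. UGT1A1 had 3 counts in the 3 sgCtrl libraries together, 96 counts with sgKeap1-1 and 111 with sgKeap1-2. The ratio of pooled counts, scaled by the libraries' total counts, was 26.5 (95% interval 8.79 to 131, counting error only) and 33.3 (11.1 to 164). Both comparisons passed the threshold in edgeR, but UGT1A1 passed the filter on low counts only through the KEAP1-guide libraries. Its p-values are therefore not used as support. The genes of the UGT1A locus share their last exons, which is where 3′ tags fall, so these reads cannot be given to UGT1A1 alone. ABCC2 rose 2.06-fold (log2 fold change 1.04, adjusted p = 0.00618) and 2.84-fold (1.51, adjusted p = 0.000168), the former lost without sgCtrl replicate 1 (adjusted p = 0.0504). POR, the reductase that feeds electrons to heme oxygenase, was lower with sgKeap1-2 (log2 fold change -0.56, adjusted p = 0.00797). Of the 6 tested genes of heme breakdown, BLVRB included, 2 were called higher with sgKeap1-1 (2.8% of all features) and none lower, and 3 higher and 1 lower with sgKeap1-2 (5.96% and 4.85% of all features). UGT1A1 was among those called higher in both comparisons.

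Among 11 genes of heme transport and binding, the exporter ABCG2 (log2 fold change 1.09, adjusted p = 0.027) and the lysosomal heme transporter SLC48A1 (0.85, adjusted p = 0.0308) rose with sgKeap1-2, and SLC46A1, a folate and heme carrier, fell (-0.78, adjusted p = 0.0241). The ABCG2 call was lost in limma-voom (adjusted p = 0.0535) and, like that of SLC46A1, without replicate 1 or 3 of sgCtrl or replicate 1 or 2 of sgKeap1-2 (adjusted p up to 0.12 and 0.1). The SLC48A1 call was lost without sgCtrl replicate 1 or 2 or sgKeap1-2 replicate 1 (adjusted p up to 0.131). With sgKeap1-1 none of the 11 was called by edgeR with all libraries and without the replicate number, by limma-voom or by DESeq2. In edgeR 4.2% of all features were called there, and 5 of the 11 genes had an unadjusted p under 0.05. The share of the list called was 27.3% with sgKeap1-2 and 36.4% over both guides, beside 10.8% and 9.64% of all features. ABCG2 was called with sgKeap1-1 when only those 2 groups were fitted (log2 fold change 0.92, adjusted p = 0.0448) and without replicate 2 or 3 of sgKeap1-2 (0.0476 and 0.0411). The heme exporter FLVCR1 and the heme-binding PGRMC2 were called lower over both guides (log2 fold changes -0.63 and -0.42, adjusted p = 0.0275 and 0.0409) and with neither guide alone in the same edgeR fit. PGRMC2 was also called with sgKeap1-2 in DESeq2 (adjusted p = 0.0461) and without sgKeap1-1 replicate 2 (0.0482) or sgKeap1-2 replicate 3 (0.00473). With the replicate number as a block, FLVCR1 (0.025 and 0.0114) and PGRMC2 (0.0404 and 0.00676) were called with each guide alone. The block also added ABCG2 (0.00646) and SLC46A1 (0.0358) with sgKeap1-1. FLVCR1 lost the call over both guides without sgCtrl replicate 2 or 3, sgKeap1-1 replicate 1 or sgKeap1-2 replicate 1 (adjusted p up to 0.205), and PGRMC2 lost it without any 1 sgCtrl library, sgKeap1-1 replicate 2 or sgKeap1-2 replicate 1 or 2 (up to 0.185).

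The genes of iron uptake that passed the test were lower. TF, transferrin, the plasma carrier of iron, had 3959, 4123 and 3217 CPM in sgCtrl, 1872, 2433 and 2294 CPM with sgKeap1-1 and 1602, 1817 and 1742 CPM with sgKeap1-2. TF fell by 0.78 on the log2 scale with sgKeap1-1 (SE 0.14, adjusted p = 0.0031) and fell by 1.13 with sgKeap1-2 (SE 0.14, adjusted p = 7.62e-05). TFR2, the liver transferrin receptor that senses iron, fell by 1.02 (adjusted p = 0.0108) and fell by 1.47 (adjusted p = 0.000457), with all KEAP1-guide libraries below all sgCtrl libraries for both genes. The TFR2 call with sgKeap1-1 was lost without sgCtrl replicate 3 or sgKeap1-1 replicate 1 or 3 (adjusted p up to 0.0572). The iron importer SLC11A2 was lower with sgKeap1-2 (-0.46, adjusted p = 0.0364), a call lost without any 1 sgCtrl library, sgKeap1-1 replicate 1 or sgKeap1-2 replicate 1 or 2 (adjusted p up to 0.129), or with only the 2 groups fitted (0.0505). Of the 8 tested genes of uptake, TFRC included, 2 were called lower with sgKeap1-1 (1.4% of all features), 3 with sgKeap1-2 (4.85% of all features) and none higher, and the ferrireductase STEAP3 was not called (0.03 and -0.07). With sgKeap1-2, limma-voom and DESeq2 each called 4 of the 8.

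The summed level of the hepatocyte markers fell as TF and TFR2 did, but not every marker fell. In sgCtrl, ALB and AFP weighed most in the sum (means of 13657 and 6026 CPM). The summed level of the 8 markers was 27065 to 33647 CPM in sgCtrl, 15511 to 19454 CPM with sgKeap1-1 and 12678 to 14162 CPM with sgKeap1-2. ALB, AFP, APOA1 and FGB were called lower with both guides, HNF4A lower with sgKeap1-2, and TTR higher with both, while APOB and SERPINA1 were not called. The part of this shift in the TF and TFR2 values was not tested.

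Iron leaves the cell through ferroportin, SLC40A1. It had 28.1, 42.9 and 24 CPM in sgCtrl, 76.7, 101 and 59.2 CPM with sgKeap1-1 and 119, 115 and 40.7 CPM with sgKeap1-2. All sgKeap1-1 libraries lay above sgCtrl, while sgKeap1-2 replicate 3 lay within the sgCtrl range. SLC40A1 was 2.91-fold higher with sgKeap1-2 (log2 fold change 1.54, SE 0.42, adjusted p = 0.0488) and 2.52-fold higher with sgKeap1-1 (1.33, SE 0.42, adjusted p = 0.142). The call was lost when any 1 library other than sgKeap1-2 replicate 3 was left out (adjusted p up to 0.154), and also with DESeq2 size factors (0.0503), without the filter on low counts (0.0539) and with only the 2 groups fitted (0.0811). With sgKeap1-1, SLC40A1 was called in DESeq2 (adjusted p = 0.00352), with only the 2 groups fitted (0.0103) and without sgKeap1-2 replicate 3 (0.0043). The same comparison passed with the replicate number as a block (0.00102). Between the guides its log2 difference was 0.21 (95% interval -0.68 to 1.09, adjusted p = 0.987). FURIN, a protease that processes hepcidin and hemojuvelin, was higher with sgKeap1-2 (0.58, adjusted p = 0.0349), a call lost without any 1 sgCtrl library or sgKeap1-2 replicate 1 or 2 (adjusted p up to 0.121). The ferroxidase CP was not called in the edgeR fit without the replicate number (adjusted p = 0.494 and 0.551). With that number as a block, CP was called higher with each guide (6.39e-05 and 0.00098).

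None of the 5 sensors and regulators of iron and heme was called with either guide by edgeR without the replicate number, limma-voom or DESeq2. An unadjusted p under 0.05 was found for 0 of 5 and 1 of 5. Since edgeR called 4.2% and 10.8% of all features, 5 genes without a call stood close to the background. BACH1 had log2 fold changes of 0.45 and 0.63 (adjusted p = 0.497 and 0.169). The iron regulatory proteins ACO1 (-0.07 and -0.37) and IREB2 (-0.07 and -0.07) and the iron sensor FBXL5 (-0.14 and -0.22) had adjusted p-values of 0.242 or above. Of 24 genes of iron-sulfur cluster assembly, 1 was called, GLRX5, a glutaredoxin that passes clusters on, which fell by 0.45 on the log2 scale with sgKeap1-1 (adjusted p = 0.0387) and fell by 0.67 with sgKeap1-2 (adjusted p = 0.00143). The share of the list, 4.17% in both comparisons, stood beside 4.2% and 10.8% of all features, and DESeq2 called 2 of the 24 with sgKeap1-2. The GLRX5 call with sgKeap1-1 was lost without any 1 sgCtrl library, sgKeap1-1 replicate 1 or 2 or sgKeap1-2 replicate 1 (adjusted p up to 0.187), and without scaling factors (0.0533).

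The genes whose log2 CPM followed a ferritin or heme gene most closely over the 9 libraries were looked up among 8642 features, as a description. FTL was followed most closely by APLP2 (Pearson r = 0.982), KPNA1 (0.979) and DNM2 (0.978). FTH1 was followed by TRIB1 (0.987), LAMB1 (0.983) and RHOQ (0.980), and BLVRB by APLP2 and PIR (both 0.970) and ABLIM1 (0.969). HMOX1 had other companions, RRS1 (0.963), YTHDF3 (0.948) and BLMH (0.934), as had TFRC with TNFRSF12A (0.962), SSR3 (0.958) and UFL1 (0.956). The 9 points share the group differences described above and the libraries' depth, and their part in these correlations was not tested.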

How the data were processed

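QuantSeq 3′ mRNA libraries of 9 HepG2 samples were examined. Whole-number counts per gene had been deposited by the authors; per the labels' processing notes FastQC, cutadapt 1.16, STAR 2.7.5b and featureCounts 1.6.3 were used. The notes name hg38 and the study's methods GRCh37. The counts carry no coordinates; strand setting, annotation and treatment of multi-mapping reads are not given in the sources used here. Every deposited feature had over 0.5 CPM in at least 3 libraries. Groups and replicate numbers were taken from the sample titles. Nothing in the labels says that replicates were separate cultures, so p-values measure the spread between these libraries, which may be technical.

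Features without a gene number (1052 of 12798, 1.339% of counts) were left out. Symbols were matched for 11740 of 11746 gene numbers. All 9 libraries were fitted in edgeR 4.0.16 (R 4.3.3; filterByExpr, TMM, robust quasi-likelihood) with group as the factor, and both guides as 1 group in a separate fit. A call is a Benjamini-Hochberg adjusted p under 0.05 over 11064 features. The study's methods name limma-voom, which was an alternative (limma 3.58.1), as were DESeq2 1.42.0, other scalings and filters, a replicate block, only the 2 groups compared, and leaving out each library. No 2 libraries of a group agreed within sampling noise (chi-square per degree of freedom 4.63 to 24.1). Ratios used log2 CPM with a prior count of 2 and exact permutation tests (scipy 1.17.1). The planned ratio of HMOX1 to HMOX2 could not be computed.

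Named were all members, every other listed gene that was called, 12 listed genes and KEAP1 in any case, and the 3 features (mean CPM 10 or more) with the pattern most like that of FTH1, FTL, HMOX1, BLVRB and TFRC. The members and lists were chosen with earlier results of these data known. Counting intervals cover counting error only.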

Additional observations from a re-analysis of the deposited data

How the results depend on the processing

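The log2 fold changes of the named genes kept their direction under all 8 alternatives other than leaving out a library (596 values; 6 lost the call and 18 gained it). With a library left out, 684 values gave 58 lost calls, 7 gained and 30 changes of sign, all of genes near 0. The numbers in the titles were not taken to pair the libraries: same-numbered deviations correlated at -0.01 to 0.52, 7 of 9 pairs were over 0.1, and 7 of 9 libraries matched best one with their own number. Same-numbered libraries also share a prefix in their descriptions, whose meaning is not given in the sources used here. With the replicate number as a block, calls rose to 977, 1956 and 1609 of all features with sgKeap1-1, sgKeap1-2 and both guides, and to 26 between the guides. With the block, 4 of the 8 genes were called with sgKeap1-1 (FTH1, BLVRB and FECH in addition, at adjusted p = 0.0351, 0.0219 and 0.00977), as were 12 and 20 of the other pathway genes with sgKeap1-1 and sgKeap1-2. Among the named ones, the block added SLC40A1 (0.00102), ABCG2 (0.00646), FLVCR1 (0.025), POR (0.0251), SLC46A1 (0.0358) and PGRMC2 (0.0404) with sgKeap1-1, and PGRMC2 (0.00676), FLVCR1 (0.0114) and BACH1 (0.0391) with sgKeap1-2. The others it added, named after their values were seen, were the ferroxidase CP with each guide (log2 fold changes 0.79 and 0.58, adjusted p = 6.39e-05 and 0.00098, against 0.494 and 0.551 without the block; higher in 6 of 6 same-numbered pairs), and SLC39A14 (0.035), ISCU (0.0364), PGRMC1 (0.0383) and ALAD (0.0198) with sgKeap1-2, each lower. Under the block the ratios over both guides (FTL to FTH1 0.50, BLVRB to BLVRA 0.63) had p = 0.25 in an exact sign-flip test, the smallest it allows. Between the guides, the 2 calls became 0 with at least 10 counts in every library, in limma-voom and with only the 2 groups compared, and 19 in DESeq2. With sgKeap1-1, 2 of the 8 genes were called without scaling and in DESeq2. The cause of these moves was not tested, apart from the smaller number of samples or features that the settings themselves bring.

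With each library left out in turn, the features called ranged from 278 to 688 (sgKeap1-1), 764 to 1291 (sgKeap1-2), 607 to 1259 (both guides) and 0 to 2 (between guides), lowest without sgCtrl replicate 1 in the first 3. Members called ranged from 1 to 2 (sgKeap1-1) and from 2 to 4 (both guides), and other pathway genes from 3 to 7 (sgKeap1-1), 6 to 14 (sgKeap1-2) and 6 to 12 (both guides). The BLVRB to BLVRA ratio over both guides ranged from 0.52 to 0.72. Signs changed in the following ranges. For NCOA4 the log2 fold change ranged from -0.17 to 0.05 between guides. For TFRC the log2 fold change ranged from -0.11 to 0.01 between guides. For HMOX1 the log2 fold change ranged from -0.06 to 0.20 with sgKeap1-1, -0.28 to 0.16 with sgKeap1-2, -0.33 to 0.11 between guides and -0.09 to 0.10 over both guides. For BLVRA the log2 fold change ranged from -0.17 to 0.13 between guides. For ALAS1 the log2 fold change ranged from -0.44 to 0.03 with sgKeap1-1 and -0.13 to 0.26 with sgKeap1-2. For STEAP3 the log2 fold change ranged from -0.11 to 0.11 with sgKeap1-1 and -0.17 to 0.01 with sgKeap1-2. For ACO1 the log2 fold change ranged from -0.18 to 0.08 with sgKeap1-1. For KEAP1 the log2 fold change ranged from -0.12 to 0.11 with sgKeap1-2. For FURIN the log2 fold change ranged from -0.04 to 0.29 with sgKeap1-1.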
